A study of Arabidopsis thaliana with 20 samples.

Results

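Open chromatin at the microRNA genes of Arabidopsis thaliana seedlings was described from DNase I-seq, in which the nuclease DNase I releases small fragments from accessible DNA. Nuclear peaks of 7 peak lists were pooled, and peaks overlapping by at least 1 bp were merged, which gave 47780 regions. A region was kept when it overlapped or lay within 1000 bp of an annotated microRNA gene (a symbol starting with MIR) and touched no protein-coding gene. This left 214 regions, out of 22585 that touched no protein-coding gene and 342 that lay near a microRNA gene. The rule used position only, and the signal and the conditions played no part in it. The largest distances kept were 999 bp (MIR4240, a peak in 7 lists) and 998 bp (MIR166a, 3 lists), and the smallest left out were 1003 bp (MIR173, 1 list) and 1012 bp (MIR830, 5 lists).

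The seedlings were 7 days old and of 1 INTACT line in the Col-0 background (UBQ10:NTF::ACT2:birA), which carries a nuclear tag driven by the UBQ10 promoter and a biotin ligase driven by the ACT2 promoter. Biotin-captured nuclei of whole seedlings were digested in all groups with DNase I (45 units, 3 min, 25 °C), so cell types are mixed. Of the 20 samples, 14 were DNase I-seq samples, and the remaining 6, RNA-seq, are not analysed here. Each DNase I-seq library was listed as 2 samples with identical peak files, so there was 1 library per condition, and differences between conditions have neither a replicate check nor a p-value. In the light series, seedlings were grown in the dark with a daily temperature cycle (16 h at 22 °C, 8 h at 20 °C). They were taken without light (dark), with 30 min or 3 h of light, or with 24 h in the light/dark cycle. The last is called 24 h of light below, although that cycle includes darkness. In the heat series, seedlings grown in the long-day cycle (LD, with 16 h of light at 22 °C and 8 h of darkness at 20 °C) received a heat shock of 30 min at 45 °C, a light spray with 0.5% ethanol followed by a wait of 3 h, or no treatment (LD control). Intervals given with shares are 95% Wilson intervals for counting error over regions only, and neighbouring regions are not independent.

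MicroRNA genes are transcribed by RNA polymerase II into primary transcripts that fold into a hairpin. In plants DCL1, with HYL1 and SE, cuts the short microRNA from the hairpin in the nucleus, HEN1 methylates it, and AGO1 carries it to matching target RNAs, which are cut or not translated. Several families are held in common by land plants and act on transcription factors of development, while others respond to the supply of phosphate, sulfate or copper. The annotated gene here is the hairpin, and the start of the primary transcript lies upstream of it and was not used.

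The mature microRNAs of the genes to which the results return are given 5′ to 3′, from the RefSeq annotation of TAIR10.1, with the seed (bases 2 to 8) in capitals. The pair miR156a-5p (chr2:10676534-10676553, minus strand) and miR156h (chr5:22597087-22597106, minus strand) share a seed and act on SPL transcription factors. For miR166a-3p (chr2:19176241-19176261, plus strand) the targets are HD-ZIP III transcription factors, and for miR168a-5p (chr4:10578652-10578672, plus strand) the target is AGO1. Of the nutrient microRNAs, miR398b-3p (chr5:4691107-4691127, plus strand) acts on copper/zinc superoxide dismutases and miR408-3p (chr2:19319933-19319953, plus strand) on laccases and plantacyanin, which are copper proteins. The phosphate-responsive ones are miR399c-3p (chr5:24962568-24962588, plus strand), which acts on PHO2, and miR827 (chr3:22122811-22122831, minus strand), which acts on NLA. Methyltransferase genes are the targets of miR163 (chr1:24884359-24884382, plus strand).
miR156a-5p: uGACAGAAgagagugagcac
miR156h: uGACAGAAgaaagagagcac
miR166a-3p: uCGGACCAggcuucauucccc
miR168a-5p: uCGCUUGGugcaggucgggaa
miR398b-3p: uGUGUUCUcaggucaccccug
miR408-3p: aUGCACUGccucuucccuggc
miR399c-3p: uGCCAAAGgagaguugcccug
miR827: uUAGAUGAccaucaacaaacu
miR163: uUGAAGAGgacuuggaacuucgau
The seed GACAGAA was shared by 7 genes with an open region (MIR156a, MIR156c, MIR156d, MIR156e, MIR156f, MIR156h and MIR157d), and the seed CGGACCA by 6 (MIR165a and MIR166a to MIR166e). Genes with one seed differed in their open regions, as the MIR156 genes show.

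Regions of 2 copper microRNAs and a phosphate microRNA with repeated motifs, and 3 of the regions with the highest signal ranks, are shown next, on the strand of their microRNA gene and in the TAIR10.1 genome sequence. All 6 are intergenic in the annotation. MIR408 has an upstream region at chr2:19319421-19319570, 244 bp before the hairpin, and MIR398b one at chr5:4690781-4690930, 92 bp before the hairpin. Capitals in these mark GTAC, the core of copper-response elements, to which the copper regulator SPL7 binds. The MIR827 region at chr3:22122961-22123110, 25 bp before the hairpin, and a 300 bp stretch at chr5:24963176-24963475, downstream of MIR399c, have GNATATNC in capitals. That is the P1BS motif of the phosphate starvation regulator PHR1. Upstream regions of MIR156h (chr5:22597761-22597910) and MIR168a (chr4:10578361-10578510) have CACGTG in capitals, the G-box, to which bZIP and bHLH factors bind. A match describes the sequence and does not show that a factor was bound.
MIR408: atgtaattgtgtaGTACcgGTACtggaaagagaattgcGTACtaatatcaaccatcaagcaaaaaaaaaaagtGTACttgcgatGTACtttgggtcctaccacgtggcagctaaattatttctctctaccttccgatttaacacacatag
MIR398b: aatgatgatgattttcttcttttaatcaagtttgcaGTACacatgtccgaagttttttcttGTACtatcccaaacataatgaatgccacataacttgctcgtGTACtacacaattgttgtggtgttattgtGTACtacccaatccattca
MIR827: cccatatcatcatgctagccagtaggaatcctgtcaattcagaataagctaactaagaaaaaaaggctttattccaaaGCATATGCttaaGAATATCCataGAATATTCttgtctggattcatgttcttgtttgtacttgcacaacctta
MIR399c: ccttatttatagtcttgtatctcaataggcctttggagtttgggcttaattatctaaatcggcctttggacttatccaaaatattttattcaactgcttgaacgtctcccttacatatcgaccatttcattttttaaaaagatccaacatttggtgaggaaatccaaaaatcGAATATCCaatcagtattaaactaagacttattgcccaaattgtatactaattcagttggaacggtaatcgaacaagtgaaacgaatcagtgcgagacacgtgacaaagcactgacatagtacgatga
MIR156h: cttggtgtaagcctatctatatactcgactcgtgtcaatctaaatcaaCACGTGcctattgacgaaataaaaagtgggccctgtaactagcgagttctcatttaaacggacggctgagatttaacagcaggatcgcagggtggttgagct
MIR168a: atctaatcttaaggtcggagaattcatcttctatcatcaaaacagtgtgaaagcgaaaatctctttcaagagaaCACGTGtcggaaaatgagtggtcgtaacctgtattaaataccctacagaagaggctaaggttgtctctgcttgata

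Most microRNA genes had no such region. Of 326 microRNA genes on the 5 nuclear chromosomes, 136 had at least 1 (41.7%, 36.5 to 47.1%), and 61 of these had several, up to 4. A further 60 genes had open regions within 1000 bp that all touched a protein-coding gene, and 130 had none within that distance. The regions were 150 to 430 bp wide, with a median of 170 bp, the same as over all regions. Their median GC content was 36%, beside 35.3% in other regions touching no protein-coding gene and 36.7% in all regions. Assignment was by distance alone: 53 of the 214 regions lay closer to a protein-coding gene than to the microRNA gene, and 28 touched another annotated non-coding gene or a pseudogene. In 5 regions, at MIR773a, MIR5642a, MIR5642b and MIR5643b, the sequence had another near-identical copy in the genome, so reads cannot be placed there with certainty.

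The open sequence lay mainly before the hairpin. Upstream regions numbered 128 (59.8%, 53.1 to 66.2%), 14 overlapped the hairpin (6.54%, 3.94 to 10.7%) and 72 lay downstream (33.6%, 27.7 to 40.2%). The split differed between the gene classes described below. It was 53 upstream and 12 downstream for development, but 9 and 12 for nutrient balance. For the small RNA pathway it was 4 and 3, and for the other genes 62 and 45. Flanks differ in how much of them is protein-coding, so the open share of the remaining sequence was measured: 10.6% of 220 kb upstream, 2.13% of 43.2 kb of hairpins and 6.04% of 215 kb downstream. In bins of 100 bp the open share was highest, at 17.2%, from 300 to 201 bp before the hairpin's 5′ end. It was 6.11% in the last 100 bp before the hairpin, 3.34% in the first 100 bp after its 5′ end, and lowest, at 2.22%, from 200 to 299 bp after it. Midpoints of upstream regions had a median position of -442 bp relative to the 5′ end (quartiles -774 and -263 bp).

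**Figure D1:**
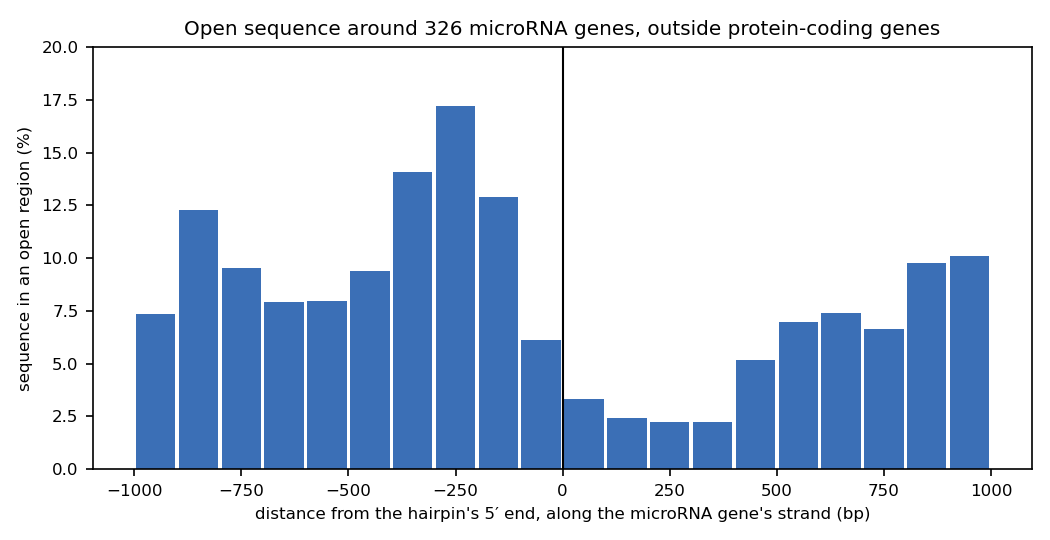
Share of sequence in an open region (y axis, %) in bins of 100 bp by distance from the 5′ end of the hairpin along the gene's strand (x axis, bp; negative values are upstream), over 326 microRNA genes and leaving out protein-coding genes. The bars peak at 17.2% just upstream and are lowest, at 2.22%, from 200 to 299 bp after the 5′ end.

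The share of regions open in every condition was close to that of open regions elsewhere. A peak was present in all 7 lists in 81 of 214 (37.9%, 31.6 to 44.5%), beside 37.1% of other regions touching no protein-coding gene and 38.6% of all regions. A peak in 1 list only was found in 48 (22.4%, 17.4 to 28.5%), beside 17.2% and 19.7%. Such regions numbered 2, 2, 7 and 4 in the light series (dark, 30 min, 3 h and 24 h), and 13 after heat shock, 11 in the spray control and 9 in the LD control. The 13 were 6.07% of the 214, beside 4.66% of other regions touching no protein-coding gene and 3.97% of all regions, and the shares in the other lists were 0.935 to 5.14%, beside 1.2 to 2.99% and 0.965 to 5.5%. In the order of the light series, 123, 118, 129 and 113 regions had a peak (57.5, 55.1, 60.3 and 52.8%), beside 60.4, 60.2, 65.5 and 55.8% of all regions. Of other regions touching no protein-coding gene, 63.5, 61.6, 66.3 and 57.1% did. In the spray control 132 of the 214 had a peak (61.7%), beside 65.6% of other regions touching no protein-coding gene and 70.5% of all regions. After heat shock 153 of the 214 did (71.5%), and in the LD control 144 (67.3%). More of them thus had a peak after heat shock than in the LD control, as did other regions touching no protein-coding gene (72.6% after heat shock and 69% in the LD control), whereas over all regions the order was the reverse (68.5% and 72.4%). Counted as genes, 95, 93, 102 and 93 of the 136 were open in the light series, and 118 after heat shock, 103 in the spray control and 113 in the LD control. Of 21015 protein-coding genes with a promoter peak in any list, 16763, 17187, 18789 and 16656 had one in the light series. After heat shock 18787 did, in the spray control 18736 and in the LD control 19269, so heat shock stood below the LD control there. The promoter window, from 1000 bp upstream to 200 bp downstream of the annotated start, differs from that of microRNA genes.

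The signal that the authors gave each peak is a whole number and is given here as a percentile among the nuclear peaks of its own list. Signal differs in level between lists, and ranks from lists of different lengths show no change by themselves. The median percentile of the regions at microRNA genes lay between 46.4 (30 min of light) and 53.6 (heat shock, and also LD control), near the middle of each list. In every list it was below the median of other regions touching no protein-coding gene, which was 53.5 (spray control) to 56.6 (24 h of light).

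The highest ranks belonged to a few genes. A region downstream of MIR5642b (chr2:3401-3570) had a median percentile of 99.9 and one downstream of MIR5642a (chr3:14198061-14198210) of 99.8, but both have near-identical copies and the second touches an annotated ribosomal RNA gene. Next came the upstream region of MIR156h, with percentiles of 99.7 (dark), 99.6 (30 min), 99.8 (3 h) and 97.9 (24 h) in the light series. In the heat series it stood at 99.6 after heat shock, 99.8 in the spray control and 99.7 in the LD control. It was thus among the strongest peaks of each list, and it lies 83 bp from the protein-coding gene AT5G55840, nearer than to the MIR156h hairpin at 644 bp. The upstream region of MIR166a (chr2:19175741-19175930), 4775 bp from the nearest protein-coding gene, ranged from 94.1 (24 h of light) to 98.9 (dark). The other genes among the 15 highest median percentiles were MIR5999 (98.4), MIR2936 (97.9), MIR8182 (97.2, heat shock only), MIR8176 (96.7), MIR5645a (96.4), MIR776 (96.0), MIR5016 (94.7), MIR168a (93.6), MIR158a (93.0), MIR5651 (91.8) and MIR399c (91.5).

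The microRNAs of development act on transcription factors and other regulators. Among their 58 genes, 38 had an open region (65.5%, 52.7 to 76.4%), against 35.8% (29.9 to 42.3%) of the 226 genes outside the listed families. The rule bore on the classes unequally, since the hairpin overlaps a protein-coding gene in 5 of the 58 and in 79 of the 226. With regions touching protein-coding genes counted too, 44 of the 58 had one within 1000 bp (75.9%, 63.5 to 85%), against 130 of the 226 (57.5%, 51 to 63.8%), a smaller gap. The development genes had 67 of the 214 regions, 53 of them upstream. Of the 67, 14 had a peak in all 7 lists (20.9%, 12.9 to 32.1%), beside 52 of 117 (44.4%, 35.8 to 53.5%) at genes outside the listed families. The median over regions of the median percentile was 25 in the development class and 41.6 at those genes. Of the 67 regions 8 lay closer to a protein-coding gene than to the microRNA gene, and 33 of the 117 did. Another non-coding gene or a pseudogene was touched by 7 of the 67 and 20 of the 117. The 2 groups of regions thus differ in their neighbours too. No test of these differences was made.

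The MIR156 and MIR157 genes, which repress SPL factors and so delay the change to adult growth, had regions of every kind, from 1 list to 7. MIR156c had an upstream region at chr4:15415881-15416130 in all 7 lists, at percentiles from 66.8 (30 min of light) to 93.2 (LD control). MIR156a had 3 upstream regions with peaks in 1 to 3 lists and none in the dark or after 30 min of light. MIR156d had a peak in the spray control only, and MIR156e had peaks in the dark and after 30 min and 24 h of light, at percentiles of 17.2 or below. MIR157c had 3 regions, with peaks in the heat series alone, and MIR157d 1, with peaks after heat shock and in the LD control. MIR156g, MIR156i, MIR157a and MIR157b had no open region within 1000 bp.

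Among the other families, MIR159a, whose microRNA acts on MYB factors, had an upstream region in all 7 lists at percentiles of 62.9 to 87.0. MIR160a, MIR160b and MIR160c, which act on auxin response factors, each had an upstream region in at least 6 lists. MIR166a, MIR166b and MIR166e had a peak in all 7 lists, whereas the upstream region of MIR166c was found after heat shock only, at a percentile of 3.7. MIR167c and MIR167d were open in all 7 lists, and the region of MIR167a, 102 bp before the hairpin, was not a peak in the dark or after 24 h. Its percentiles were 8.7 after 30 min and 15.9 after 3 h of light, and 65.9 after heat shock, 79.6 in the spray control and 80.5 in the LD control. MIR396a, which acts on growth-regulating factors, had 1 region in all 7 lists, and MIR396b had 4 regions with peaks in 2 to 6 lists. For MIR172, which acts on AP2-like factors of flowering, MIR172b had a region in the lists of the heat series alone at percentiles of 4.7 to 5.5, MIR172e had 4 regions, and MIR172a, MIR172c and MIR172d had none. MIR319a, MIR319b and MIR319c, which act on TCP factors of leaf growth, had regions in 1 to 3 lists, and MIR164a, MIR164b and MIR164c, which act on NAC factors of organ boundaries, in 1 to 6.

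**Figure D2:**
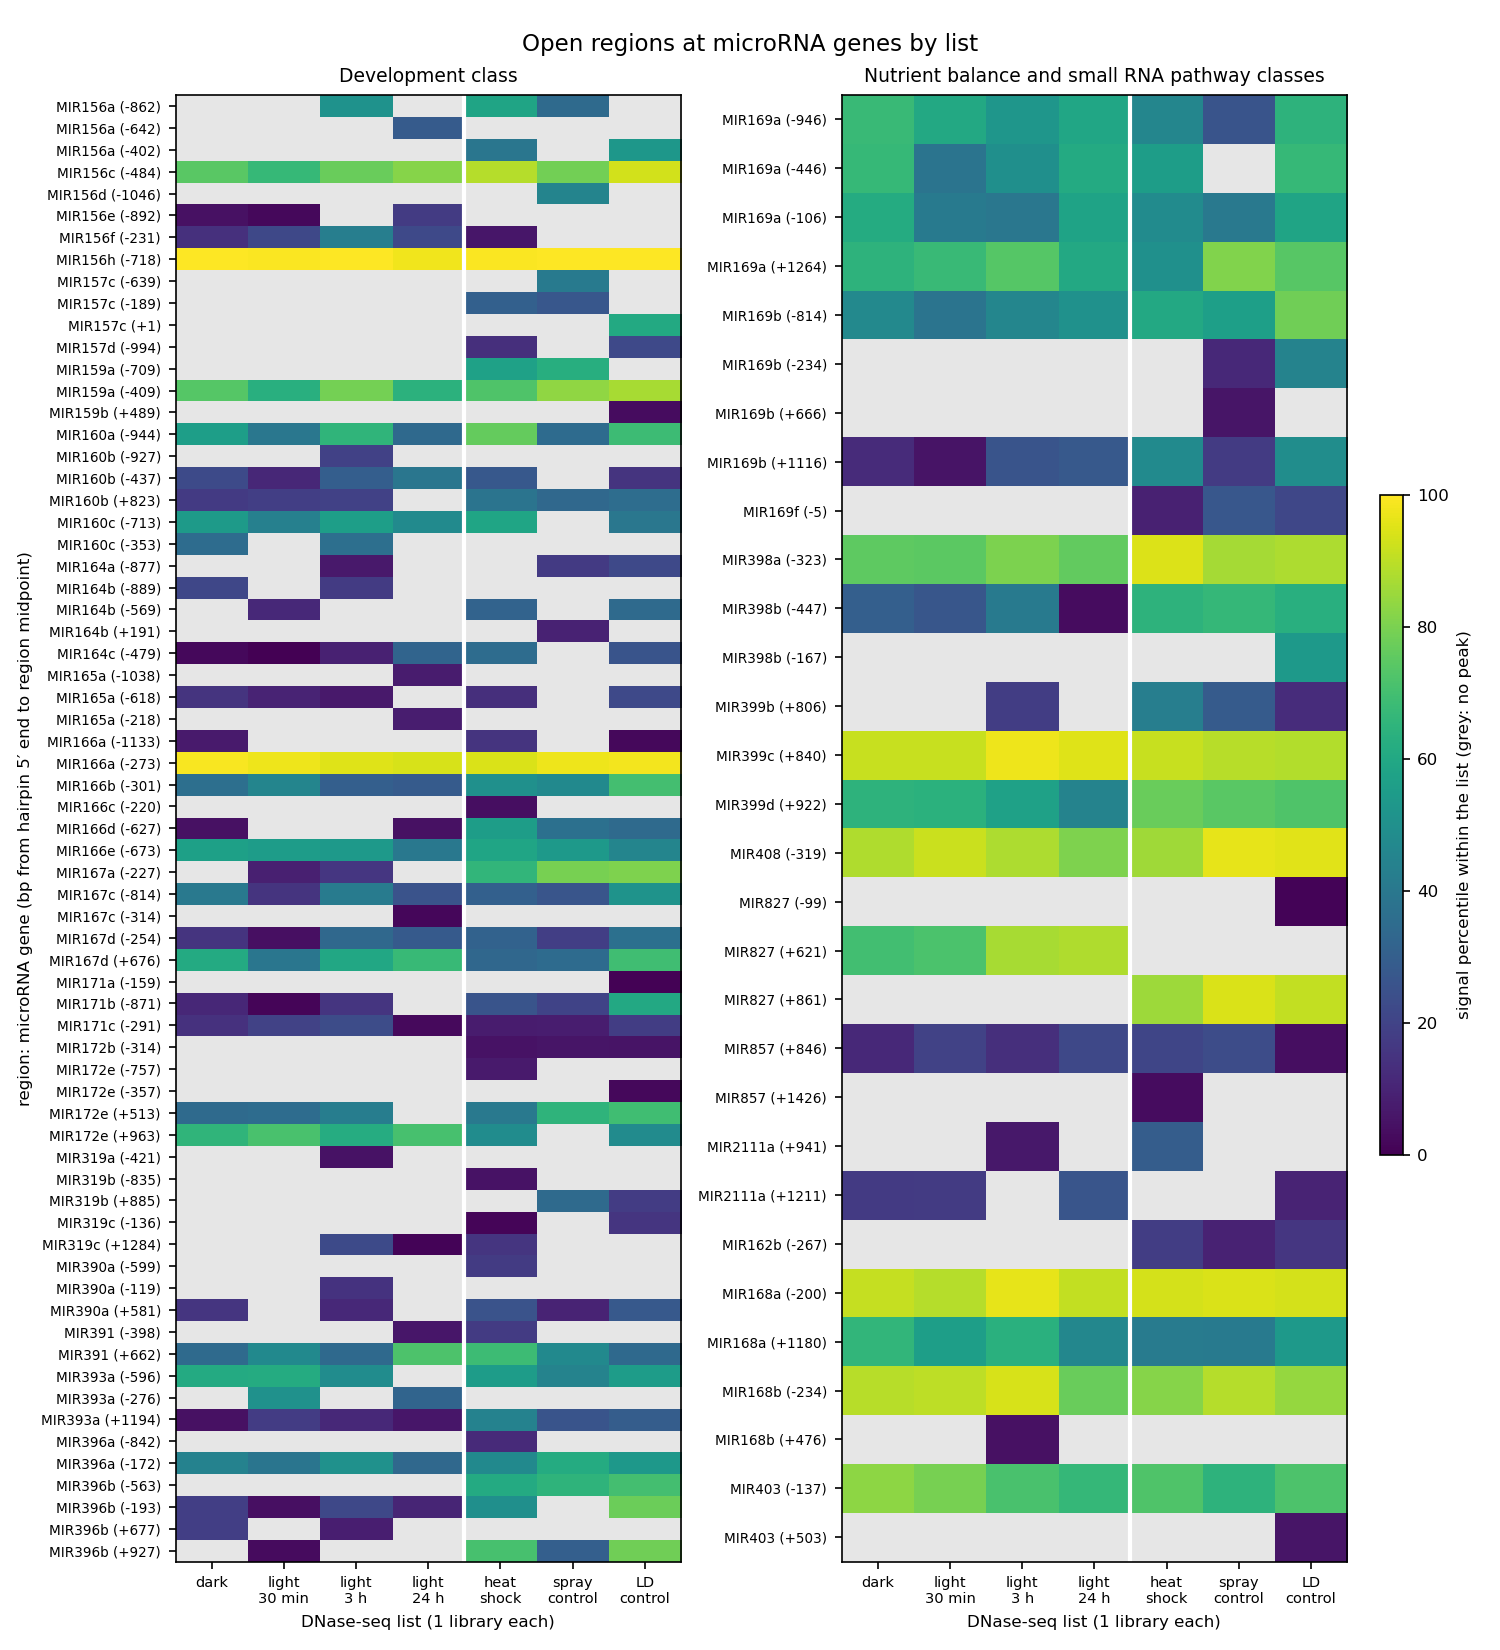
Signal percentile of each open region within its list (colour, 0 to 100; grey where the list has no peak) for genes of the development class (left) and of the nutrient balance and small RNA pathway classes (right). Columns are the 7 lists, 1 library each, and the number beside a gene is the distance in bp from the hairpin's 5′ end to the region's midpoint. The regions of MIR156h and MIR166a (-273) are bright in every column, and the neighbouring MIR827 regions (+621 and +861) have peaks in the light series and in the heat series, with no column in common.

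Nutrient microRNAs had open regions at 13 of 37 genes (35.1%, 21.8 to 51.2%), with 23 regions. Of these, 11 were peaks in all 7 lists (47.8%, 29.2 to 67%). Of other regions touching no protein-coding gene 37.1% were, and of all regions 38.6%, both within that interval. Of the 23 regions, 10 lay closer to a protein-coding gene than to the microRNA gene. The families differed. None of the 6 MIR395 genes, which act on sulfate assimilation, had an open region within 1000 bp, and 3 of 14 MIR169 genes, which act on NF-YA factors, had one (MIR169a, MIR169b and MIR169f). The cluster from MIR169i to MIR169n had none. MIR169a and MIR169b had 4 regions each.

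The MIR408 region ranked high in every list: 88.2 (dark), 91.9 (30 min), 87.5 (3 h) and 80.6 (24 h) in the light series, and 85.8 after heat shock, 96.2 in the spray control and 95.6 in the LD control. It lies 24 bp from the protein-coding gene AT2G47010. The upstream region of MIR398a was also a peak in all 7 lists, at percentiles of 74.8 to 94.6. MIR398b had an outer upstream region (chr5:4690461-4690690) in all 7 lists. Its percentiles were 30.1, 26.8, 41.2 and 3.3 in the order of the light series, and 64.6 after heat shock, 66.5 in the spray control and 63.0 in the LD control. The inner region, 92 bp before the hairpin, was a peak in the LD control only (54.0).

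Of the phosphate microRNAs, MIR399c and MIR399d had a downstream region in all 7 lists, MIR399b a downstream region in 4, and MIR399a, MIR399e and MIR399f none. The MIR399c region had percentiles of 88.6 (LD control) to 97.4 (3 h of light). MIR827 had 3 regions. The upstream one shown above was a peak in the LD control only, at a percentile of 1.0. Downstream, a region at chr3:22122221-22122410 had percentiles of 69.8, 71.6, 87.1 and 88.0 in the order of the light series and no peak in the heat series. Another region, farther from the hairpin at chr3:22122001-22122150, lay within 150 bp of that one and 44 bp from AT3G59880. It had 85.5 after heat shock, 94.2 in the spray control and 90.7 in the LD control, and no peak in the light series. Whether both are a single site called at shifted positions was not tested. MIR857 and MIR397b, which act on laccases, shared a region that was a peak in all 7 lists at percentiles of 23.1 or below.

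The microRNAs that act on the small RNA machinery itself had regions at 4 of 5 genes. MIR168a and MIR168b, which act on AGO1, each had an upstream region in all 7 lists, at percentiles of 88.9 to 96.4 for MIR168a and 77.1 to 94.0 for MIR168b. MIR403, which acts on AGO2, had one 62 bp before its hairpin in all 7 lists, at 64.6 to 83.2. The region of MIR162b, which acts on DCL1, was a peak in the heat series only, at 18.3 after heat shock, 9.7 in the spray control and 15.7 in the LD control.

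Outside the listed families, the upstream region of MIR163 (chr1:24883541-24883770) was a peak in all 7 lists with widely spread ranks, and was chosen after its values were seen. Its percentiles were 3.9 (dark), 10.4 (30 min), 79.4 (3 h) and 89.8 (24 h) in the light series. In the heat series they were 60.3 after heat shock, 66.1 in the spray control and 61.5 in the LD control. The signal values behind these were 60, 74, 342 and 375 in the light series, where the medians of the lists were 148, 180, 192 and 149. MIR163 was thus near the bottom of the dark and 30 min lists and in the upper part of the 3 h and 24 h lists.

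The heat shock comparison asked which regions were peaks after 30 min at 45 °C and not in the LD control (gained), or the reverse (lost). Gained regions at microRNA genes numbered 29 of 214 (13.6%, 9.6 to 18.8%), beside 12.8% of other regions touching no protein-coding gene and 9.9% of all regions. Lost regions numbered 20 (9.35%, 6.13 to 14%), beside 9.22% and 13.8%. Both shares were therefore near those of regions of the same kind elsewhere. Low ranks prevailed here as over all gained and lost regions: 6 of the 29 gained (20.7%) and 3 of the 20 lost (15%) lay in the upper 50% of the list that held them, beside 16.4% and 14.1% over all regions. Within 150 bp of a peak of the other list lay 6 gained (20.7%) and 5 lost (25%), beside 15.7% and 11.2%. Beside 9.9% gained and 13.8% lost over all regions, the development class gained 11 and lost 6 of its 67 regions. The nutrient class gained 2 and lost 4 of 23, and the small RNA pathway class gained 0 and lost 1 of 7. With all lists cut to the length of the shortest by signal, the lost share at microRNA genes was 5.65%. The share over all regions was not computed for lists cut in this way.

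The strongest gained region lay 962 bp upstream of MIR8182 (chr3:22677041-22677190). It was a peak after heat shock only, with a signal of 1498 and a percentile of 97.2, and it is 190 bp from the protein-coding gene AT3G61260. It was the one region found in a single list with a percentile above 75. A region overlapping the MIR5643a hairpin (chr5:11667821-11667970) was a peak after heat shock, at 88.8, and after 24 h of light, at 93.3, and in no other list. The next were at MIR8172 (64.2), MIR414 (63.2), MIR156a (58.5), MIR159a (57.3), MIR10515 (48.2), MIR407 (47.7), a second MIR414 region (44.0) and MIR5651 (43.0).

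Lost regions, with their percentile in the LD control, were led by MIR157c (60.7), MIR863 (56.1), MIR398b (54.0, the inner region with 4 copies of GTAC), MIR169b (44.8) and MIR173 (41.8), which triggers the production of trans-acting small RNAs. MIR5635b (37.5), MIR419 (31.1), MIR164a (21.9), MIR414 (18.2) and MIR319b (17.8) followed. At MIR157c the LD control had a peak over the hairpin's 5′ end, whereas heat shock had one 105 bp upstream, at 30.7. Counted as genes, 12 were open after heat shock and not in the LD control, among them MIR166c, MIR156f and MIR8182, and 7 were open in the LD control and not after heat shock, among them MIR159b, MIR164a and MIR171a. These were 8.82% (5.12 to 14.8%) and 5.15% (2.52 to 10.2%) of the 136 genes, beside 3.78% and 6.07% of the 21015 protein-coding genes with a promoter peak in any list, from 1000 bp upstream to 200 bp downstream of the annotated start. The windows of both kinds of gene differ.

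The light comparisons asked which regions differed from the dark list after 30 min, 3 h and 24 h. All 3 share the dark library, so no overlap between them is given. After 30 min, 12 regions were gained (5.61%, 3.24 to 9.54%) beside 5.98% of all regions, and 17 were lost (7.94%, 5.02 to 12.4%) beside 6.16%. After 3 h, 22 were gained (10.3%, 6.89 to 15.1%) beside 11.8%, and 16 lost (7.48%, 4.65 to 11.8%) beside 6.68%. After 24 h, 13 were gained (6.07%, 3.58 to 10.1%) beside 6.17%, and 23 lost (10.7%, 7.27 to 15.6%) beside 10.7%. Each interval at microRNA genes holds the share of all regions. With lists of equal length the share gained after 24 h was 10.7%, and no share over all regions was computed for that setting. Counted as genes, 5, 13 and 6 of the 136 were gained after 30 min, 3 h and 24 h (3.68, 9.56 and 4.41%). Beside these stood 4.39, 10.8 and 4.66% of protein-coding genes with a promoter peak in any list. Lost genes numbered 7 (5.15%, 2.52 to 10.2%), 6 (4.41%, 2.04 to 9.29%) and 8 (5.88%, 3.01 to 11.2%), beside 2.37, 1.17 and 5.17%. As in the heat shock comparison, the windows of both kinds of gene differ.

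The upper 50% of their list held 1 of 12 gained and 0 of 17 lost regions after 30 min, 1 of 22 and 1 of 16 after 3 h, and 2 of 13 and 2 of 23 after 24 h. Over all regions the share was low too, at 8.16% of gained and 9.48% of lost regions after 30 min, 7.79% and 18.3% after 3 h, and 13.3% and 16% after 24 h. After 30 min the strongest gained regions were at MIR393a (50.5), which acts on auxin receptors, MIR8167e (43.2) and MIR8172 (32.5), and the strongest lost ones at MIR867 (36.7 in the dark) and MIR160c (35.2). After 3 h, gained regions were led by MIR156a (50.9), MIR414 (48.0), MIR5023 (45.5) and MIR8167e (45.2). The strongest lost region lay downstream of MIR8166 (chr1:4524441-4524650), at 86.7 in the dark, 78.2 after 30 min of light, no peak after 3 h or 24 h, and 66.0 after heat shock, 34.4 in the spray control and 62.3 in the LD control. Other regions of MIR8166 on both sides of it were peaks in all 7 lists.

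After 24 h, gained regions were led by MIR5643a (93.3), MIR8167e (54.2), MIR5023 (37.8), MIR393a (32.3) and MIR156a (28.8). Besides MIR8166, lost regions were led by MIR393a (61.1), MIR5665 (39.3), MIR867 (36.7), MIR160c (35.2) and MIR172e (34.7). MIR393a thus had a region gained and a separate one lost, with midpoints at -276 and -596 bp relative to the hairpin's 5′ end. Peaks at all 3 times in light and none in the dark were found in 2 regions, at MIR8167d and MIR8167e (0.935%, 0.257 to 3.34%), beside 1.71% of all regions. Of its 67 regions the development class gained 4, 7 and 7 at 30 min, 3 h and 24 h, and lost 6, 3 and 10. The nutrient class, with 23 regions, gained 0, 2 and 0, and lost 0, 1 and 0. The small RNA pathway class, with 7, gained 0, 1 and 0, and lost 0 at each time. Over all regions 5.98, 11.8 and 6.17% were gained and 6.16, 6.68 and 10.7% lost.

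The spray control and the dark were also set against the LD control. In the spray control 21 regions were gained (9.81%, 6.51 to 14.5%) beside 11% of all regions, and 33 were lost (15.4%, 11.2 to 20.9%) beside 12.9%. These counts without heat were of the size seen after heat shock, though the spray, the wait and the handling of organelle peaks differ from the LD control. Counted as genes, 7 were open in the spray control and not in the LD control, and 17 the reverse. These were 5.15% (2.52 to 10.2%) and 12.5% (7.95 to 19.1%) of the 136 genes. Of protein-coding genes with a promoter peak in any list, 3.2% and 5.74% were. In the dark 14 regions were gained (6.54%, 3.94 to 10.7%) beside 8.59% of all regions and 11.9% of other regions touching no protein-coding gene, and 35 were lost (16.4%, 12 to 21.9%) beside 20.6%. With lists of equal length 11.3% were gained and 11.3% lost in the dark. The shares over all regions were not computed with lists of equal length, so these values have no background. Counted as genes, 6 were open in the dark and not in the LD control, among them MIR156e and MIR156f. A total of 24 were open in the LD control and not in the dark, among them MIR156a, MIR157c, MIR164a, MIR167a, MIR172b, MIR319c, MIR399b and MIR162b. These were 4.41% (2.04 to 9.29%) and 17.6% (12.2 to 24.9%) of the 136 genes. Of protein-coding genes with a promoter peak in any list 2.32% and 14.2% were, so losses outnumbered gains in both. For the spray control and the dark alike, the windows of both kinds of gene differ. These comparisons share the LD control library with the heat shock comparison.

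**Figure D3:**
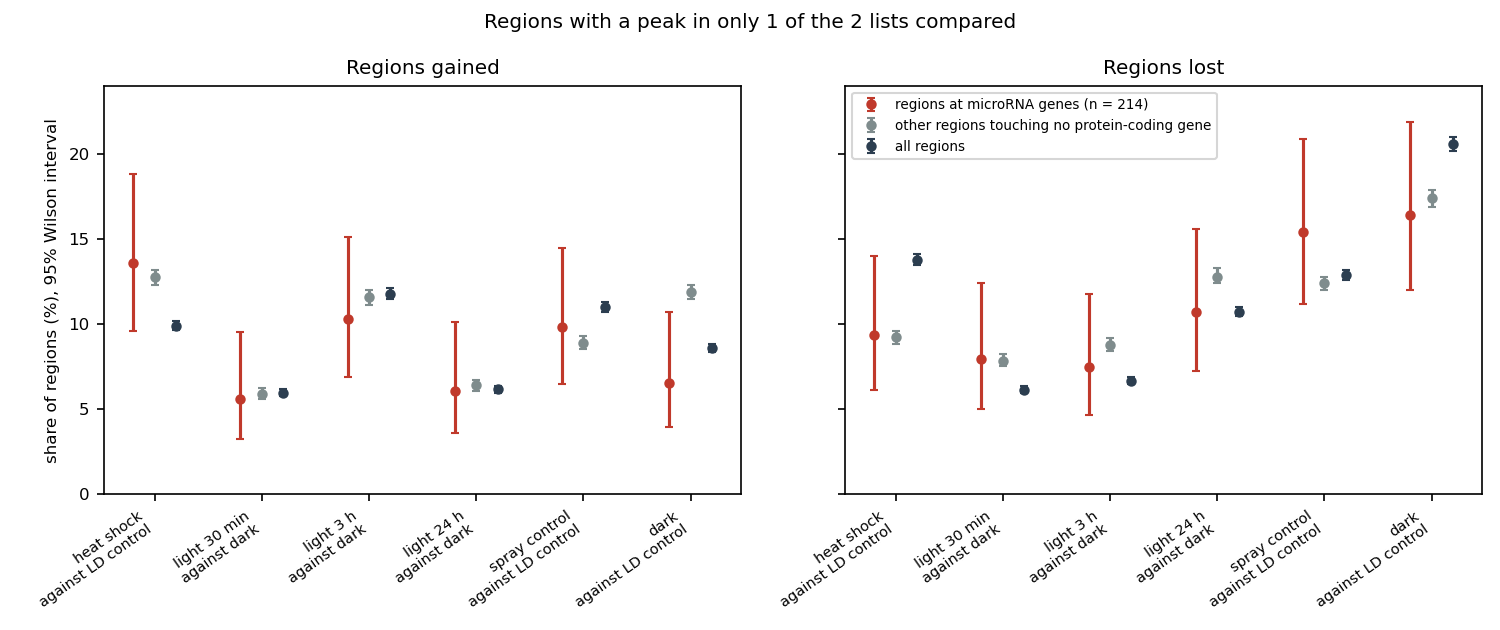
Share of regions gained (left) and lost (right) in each comparison (y axis, % of regions) for the 214 regions at microRNA genes, for other regions touching no protein-coding gene and for all regions. Points are shares and bars 95% Wilson intervals, which cover counting error only. At microRNA genes the gained share runs from 5.61% (30 min of light) to 13.6% (heat shock), and the lost share from 7.48% (3 h of light) to 16.4% (dark against LD control).

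A pattern across the series was counted after the values were seen. Peaks in all 3 lists of LD-grown seedlings and none of the 4 of dark-grown seedlings were found in 7 regions (3.27%, 1.59 to 6.6%), beside 3.62% of all regions. They lay at MIR158b, MIR169f, MIR5633, MIR827, MIR172b, MIR162b and MIR396b, and the strongest were those of MIR827 (85.5 to 94.2) and MIR396b (61.1 to 70.1). The reverse was found in 2 regions, at MIR827 and MIR826a (0.935%, 0.257 to 3.34%), beside 1.29%. The MIR827 regions of both patterns lie within 150 bp of each other, and a shift in peak position between the series was not tested. Growth in light and the level of signal differed together between the series, with list medians of 148 to 192 in the light series, and of 424 after heat shock, 1036 in the spray control and 417 in the LD control, so growth and signal level cannot be told apart.

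Both strands of the central 150 bp of each region were searched for motifs. The P1BS motif GNATATNC was found in 15 of 214 regions (7.01%, 4.29 to 11.2%), beside 3.64% of other regions touching no protein-coding gene and 3.25% of all regions. GTAC was found in 64 (29.9%, 24.2 to 36.4%) beside 26.9% of all regions, CACGTG in 23 (10.7%, 7.27 to 15.6%) beside 8.23%, and the TATA box TATAAA in 51 (23.8%, 18.6 to 30%) beside 21.9%. Pairs of heat shock units (GAANNTTC or TTCNNGAA) were found in 20 (9.35%, 6.13 to 14%) beside 8.81%, and the I-box GATAAG in 23 (10.7%) beside 10.1%. For all but P1BS the interval holds the share of all regions.

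Repeated matches in the central 150 bp were counted after the regions had been seen. The MIR408 region has 5 copies of GTAC there, a number reached by 4 of the 47780 regions, and it also holds a G-box. At least 4 copies were found in 3 of 214 regions at microRNA genes (1.4%), those of MIR408, MIR398b and MIR391, beside 0.128% of all regions. Over its whole width a MIR157d region (chr1:18027941-18028110) has 4 copies as well. The MIR398b region is the inner one, a peak in the LD control only, and that of MIR391 (chr5:24292601-24292790) was a peak after 24 h of light and after heat shock. Of the 15 regions with P1BS, the MIR827 region has 3 copies, a number reached by 4 of all 47780 regions, and its peak ranked near the bottom of the LD control list. Regions of MIR399c, MIR2111a and MIR167c have the motif too, the first of these in the stretch shown above. Over their whole width, regions of MIR156d, MIR159b, MIR160b, MIR164b, MIR166c and MIR390a of the development class have it as well, among others. The regions of the phosphate genes MIR399b and MIR399d have no match.

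**Figure D4:**
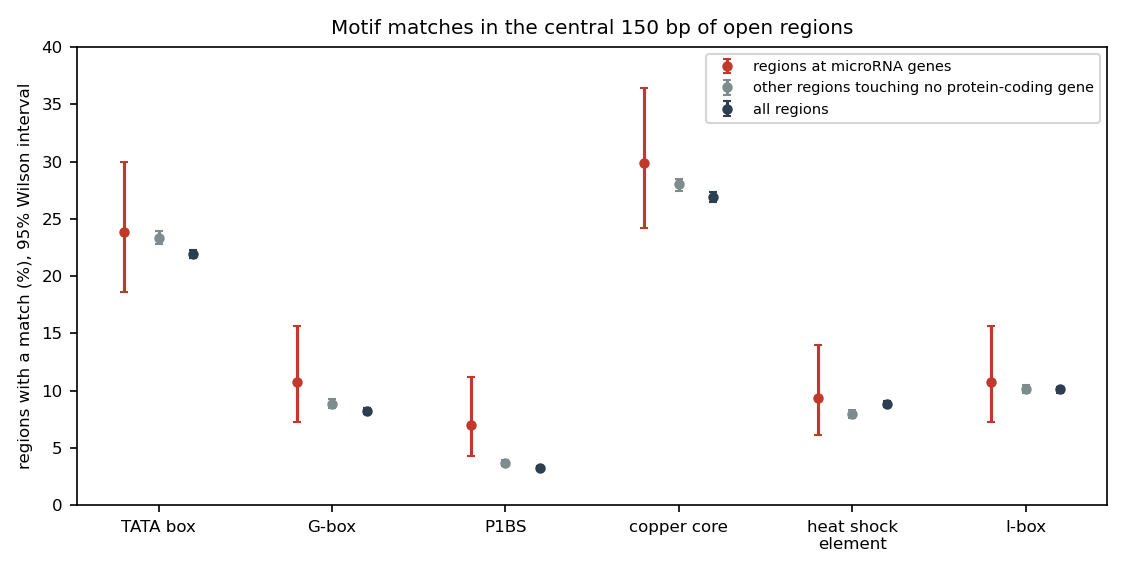
Share of regions with at least 1 match to each motif in their central 150 bp (y axis, %), with 95% Wilson intervals, for regions at microRNA genes, other regions touching no protein-coding gene and all regions. P1BS stands at 7.01% at microRNA genes and 3.25% in all regions, and for the other 5 motifs the bar at microRNA genes takes in the point of all regions.

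Of 20 listed protein-coding genes of the microRNA pathway, 19 had a region in the promoter window, beside 76.6% of all 27444 protein-coding genes, and SDN1, a nuclease that degrades microRNAs, had none. In the order of the light series 14, 15, 16 and 16 of the 20 had a promoter peak, beside 61.1, 62.6, 68.5 and 60.7% of all genes, and 17 did after heat shock, 16 in the spray control and 18 in the LD control, beside 68.5, 68.3 and 70.2%. The core genes DCL1, HYL1, SE, HEN1 and AGO1 had a promoter region with a peak in every list. HST, an exportin-like protein of microRNA transport, had one after heat shock and in the LD control and in no other list. After heat shock, 2 of the 20 had a gained promoter region (HESO1, which adds uridines to unprotected microRNAs, and AGO2), beside 8.22% of all protein-coding genes, and 2 a lost one (ABH1, a subunit of the nuclear cap-binding complex, and AT1G07705), beside 12.7%. After 30 min of light 2 had a gained one (HESO1 and AGO2) beside 6.5%, and 0 a lost one beside 5.56%.

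After 3 h of light 4 of the 20 had a gained promoter region (ABH1, HESO1, AGO2 and AGO10) beside 13.2% of genes, and 1 a lost one (AGO7) beside 5.9%. After 24 h 3 had a gained one (ABH1, HESO1 and AGO2) beside 7.09%, and 1 a lost one (AGO2, in another region) beside 10.6%. In the spray control 2 had a gained one (HYL1 and HESO1) beside 9.29%, and 4 a lost one (HST, ABH1, AGO10 and AT1G07705) beside 10.7%. In the dark against the LD control 1 had a gained one (AGO2) beside 7.32%, and 6 a lost one (HST, ABH1, AGO2, AGO10, AGO7 and AT1G07705) beside 18.3%. AT1G07705 had a promoter peak in the LD control only. HESO1 had a promoter peak in every list except the dark and the LD control. ABH1 had one after 3 h and 24 h of light and in the LD control.

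The lists held 26712 to 34637 nuclear peaks and read depth was not used, so a region without a peak is one not called at the depth and threshold of that list, and not one shown to be closed. Of 5 shoot photosynthesis genes (LHCB3, RBCS1A, RCA, PSBS and GAPA), 4 had a promoter peak in the dark and after 30 min of light and 5 in the other lists. Of 5 root genes (SCR, SHR, WOX5, PLT1 and RHD6) 2 did in every list (40%). Of 5 seed storage genes (CRU3, CRA1, SESA1, OLEO1 and OLEO2) 2 or 3 did (40 or 60%). Over all protein-coding genes the share per list was 60.7 to 70.2%, so these counts do not set root or seed genes apart as open.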

How the data were processed

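DNase I-seq peak lists of 14 samples were used. The authors deposited, per sample, a list in the narrowPeak layout, of which the signal column, a whole number per peak, was used as a percentile within its own list. Bowtie 0.12.7, CASAVA 1.8.2 and the build TAIR10 are named per the submitters' processing notes. The peak caller, its threshold and read filters were not given in the sources used here, and the series text mentions subsampled samples without marking them. Over 99% of nuclear peaks were 150 bp wide (99.9 to 99.97%). Lists held 26712 (24 h of light) to 34637 (LD control) nuclear peaks, and 474 organelle peaks of the spray control were left out.

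Genes and sequences came from RefSeq TAIR10.1. No deposited peak ran past a chromosome end, and 57.6 to 61.7% of midpoints lay in promoter windows, against 27.8 to 28.4% after moving peaks by 5000 bp. MicroRNA genes numbered 326, after leaving out 3 protein-coding genes with MIR symbols. Coordinates are 1-based. A region was gained or lost when 1 list of a comparison had a peak and the other none. With 1 library per condition no test was made. Near-identical copies were sought with BLAST 2.17.0 (at least 95% identity over 80% of a region), other steps used Python 3.11.15, pandas 2.3.3 and scipy 1.17.1, and merging, neighbour assignment and gained and lost counts were tested on simulated data.

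Members, gene classes and motifs were chosen with earlier results of these data known. Named genes were drawn mainly from those of the 3 listed classes with a region, the 15 highest median percentiles, up to 10 gained and 10 lost regions per main comparison, regions of 1 list above the percentile 75, and pathway genes with a gained or lost promoter region. Not all of these are named: MIR171b and MIR171c of the development class, for example, had a region and are not described. Alternatives varied the distance, the merging overlap, the signal cut, list length, the lists pooled, the rule on protein-coding genes, and merging itself.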

Additional observations from a re-analysis of the deposited data

How the results depend on the processing

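Of 115 values under other settings, 91 stayed within 1.5 times the reported count, or within its interval, and 24 did not. All those made without the spray control list (13), with regions placed by midpoint (15) or with single peaks in place of merged regions (12) were among the 91. The number of regions was 124 within 500 bp, 373 within 2000 bp and 105 with the upper 50% of peaks by signal, which left 81 microRNA genes. Merging only peaks that overlapped by 75 bp gave 29.7% of regions in every list.

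With the upper 50% of peaks set against all peaks of the other list, the gained and lost shares were 5.71% and 2.86% after heat shock, 0.952% and 0% after 30 min of light, 0.952% and 0.952% after 3 h, 1.9% and 1.9% after 24 h, 0.952% and 5.71% in the spray control, and 0.952% and 7.62% in the dark against the LD control. Lists of equal length gave 5.65% lost after heat shock, 10.7% gained after 24 h of light, and 11.3% gained and 11.3% lost in the dark against the LD control. None of the other settings was applied to all regions, so no background share stands beside these values. Within 500 bp the lost shares after 30 min, 3 h and 24 h were 4.84%, 3.23% and 7.26%. The upper 50% setting drops every call ranked in the lower 50% of its list, where most calls lay. Its lower shares are therefore built in, and it gave 14 of the 24 values that moved. The cause of the other shifts was not tested.

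Each condition has 1 library, so leaving out a replicate was not possible, and the depth behind the lists is unknown. No paired analysis was possible because the 2 samples of a library hold the same peaks. Regions were assigned to microRNA genes by distance alone.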

Other observations

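Some microRNA genes had open regions within 1000 bp that all touched a protein-coding gene and so were left out above. In the listed classes these were MIR156b, MIR156j, MIR159c, MIR166f, MIR170 and MIR824 of the development class, MIR169h, MIR398c, MIR778 and MIR2111b of the nutrient class, and MIR162a, which acts on DCL1. MIR398c had 3 such regions. Of the 326 hairpins, 89 overlap a protein-coding gene in the annotation.

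The microRNAs miR828 and miR858a act on MYB transcription factors, among them those of anthocyanin and flavonol synthesis, and their regions were chosen after the values were seen. The upstream region of MIR858a (chr1:26773981-26774230) had percentiles of 3.9 in the dark and 4.4 after 3 h of light, no peak after 30 min or 24 h, and 48.9 after heat shock, 48.6 in the spray control and 49.0 in the LD control. The region of MIR828 (chr4:13846761-13846950), 21 bp before the hairpin and 15 bp from the protein-coding gene FEY, had percentiles of 16.2 (dark), 13.7 (30 min) and 11.2 (24 h) in the light series and no peak after 3 h. In the heat series it stood at 7.1 after heat shock, 26.7 in the spray control and 40.7 in the LD control. MIR161, whose microRNAs act on pentatricopeptide repeat genes, had an upstream region in all 7 lists at percentiles of 15.3 (24 h of light) to 63.8 (spray control).

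The upstream region of MIR5665 (chr5:19499761-19499910), also chosen after its values were seen, had percentiles of 95.8 (dark), 95.5 (30 min), 86.7 (3 h) and 97.4 (24 h) in the light series. In the heat series it stood at 23.9 after heat shock and 34.6 in the LD control, with no peak in the spray control.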
